A study of Populus davidiana with 6 samples.

Results

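The 198 genes described here carried the most abundant transcripts of aspen leaves in this series, less those whose air-dried and control libraries were fully separated by a 2-fold difference. The level of a gene was the sum of the FPKM of its transcripts. FPKM is the number of sequenced fragments of a transcript scaled to its length and to the library, so levels of different genes can be set side by side. Of 40537 listed genes, 34034 had at least 1 transcript marked known and a span of at least 600 bp. The 200 of these with the highest median FPKM over the 6 libraries were taken and ranked, rank 1 being the highest. From these, 2 genes were taken out because all 3 air-dried values were at least 2 times, or at most 0.5 times, every control value. The genes were thus chosen by their FPKM level and by the difference between air-dried and control leaves, and both are given as a description. Calls from a fit across all genes are printed for single genes to set a difference beside its spread; since the selection used the same values, they are no independent test and support nothing about the list.

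The RNA came from leaves of Populus davidiana, cultivar Seogwang9, labelled as drought tolerant, in plants of about 6 weeks grown in culture from internodes. The control group held 3 libraries. The air-dried group held 3 libraries from plants that were taken out of the medium, rinsed with sterile water and exposed to air for about 10 minutes. The sources used here do not say how the controls were handled, nor whether the leaf samples of a group were separate plants, so the spread between libraries may be technical. In whole leaves, fewer cells of a type and less RNA per cell cannot be told apart. Poly(A) RNA was read in pairs of 100 bp.

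In a green leaf, abundant nuclear messages typically encode proteins that capture light, move electrons in the thylakoid membrane and fix carbon in the chloroplast, together with ribosomal proteins and other proteins that every cell needs in bulk. Many of these families have several close copies in the poplar genome, which went through a whole-genome duplication, and reads of close copies can be hard to tell apart. Short drying sets off fast signalling through abscisic acid and calcium and closes stomata, while the pool of an abundant, stable message can respond more slowly. The deposited tables leave the gene name empty, and no table used here pairs the accessions with products. No function is therefore given for any of the 198 genes, and the leaf identity of the samples was not checked against marker genes. Genes are given by rank and by the coordinates of the deposited tables, for which the sources used here name no build; the accessions starting with POPTR are of the Populus trichocarpa type.

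Libraries resembled each other in a way that cut across control and air-dried: controls 1 and 2 and air-dried 1 are called set A, and control 3 and the air-dried libraries 2 and 3 are called set B. These sets were found in the values, and the labels name no batch. Over the 198 genes the rank correlation of levels was 0.849 to 0.963 between libraries of a set and 0.757 to 0.873 between libraries of different sets. The ranges overlapped, and air-dried 2 was less clearly placed. It correlated at 0.873 with air-dried 1 of set A and at 0.849 with control 3 of its own set. The genes share libraries and are not independent, so these correlations only describe the tables. The sources used here do not give the number of reads per library.

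The share of the 198 genes in the measured message depended on which genes were counted. Their share of the summed FPKM of all genes with a known transcript and a span of at least 600 bp was 34.1%, 32.3% and 28.6% in controls 1 to 3, and 32.1%, 31.3% and 27.9% in the air-dried libraries. The ranges of the groups overlapped, and the lowest shares were in control 3 and air-dried 3. Of the summed FPKM of all listed genes, very short loci included, they held 16.9%, 7.83% and 7.38% in controls 1 to 3 and 14.6%, 12.3% and 13.1% in air-dried 1 to 3, with the lowest shares in controls 2 and 3. The 10 highest genes alone held 5.39% to 8.25% of the first of these sums. Of the 198 genes, 154 were among the 200 highest in every library, and a single library placed between 178 and 187 of them there. The median level over the 198 genes was 869, 849 and 748 FPKM in the controls and 851, 831 and 760 FPKM in the air-dried libraries, against 11.8 to 12.6 FPKM over the 22356 tested genes, those whose mean FPKM was 1 or more.

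Levels fell steeply within the list. The highest median was 7686 FPKM and the lowest 445 FPKM. Medians were above 4000 FPKM in 9 genes, above 2000 FPKM in 34 and above 1000 FPKM in 81. At the edge, the genes of rank 199 and 200 had medians of 446.2 and 445.5 FPKM, and the first genes outside, on chromosome 14 (1760678 to 1765024) and chromosome 9 (377754 to 381071), had 443.7 and 440.5 FPKM.

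**Figure D1:**
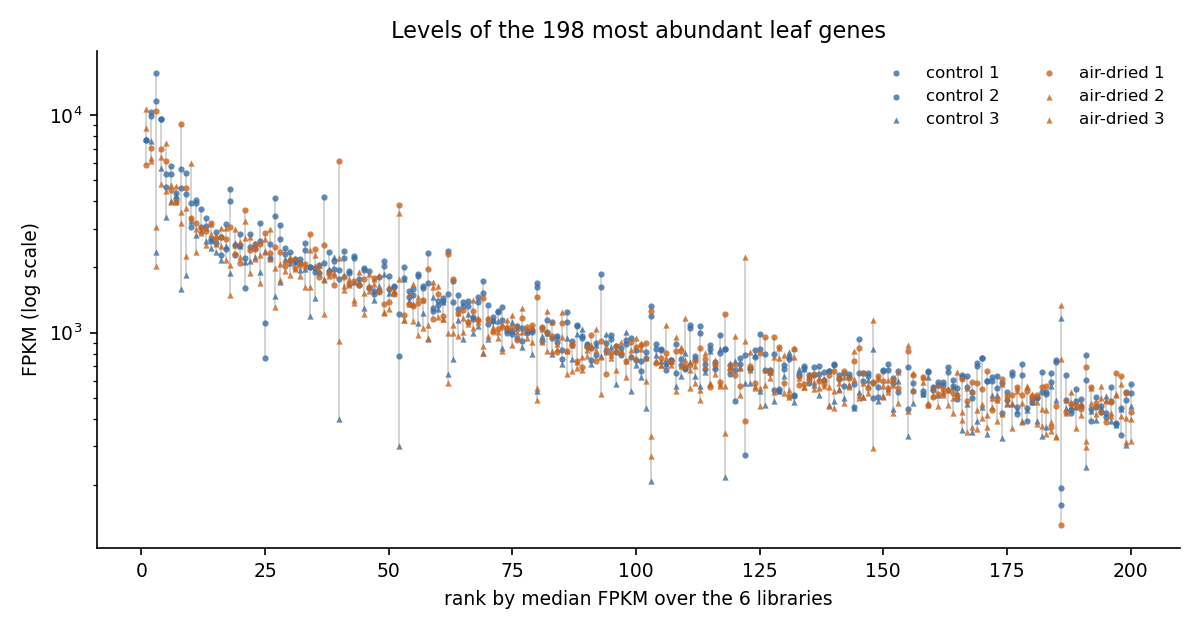
FPKM on a log axis of each of the 198 genes in the 6 libraries, ordered by rank of the median; blue marks are controls, orange marks air-dried libraries, circles set A and triangles set B, and grey lines join the lowest and highest library of a gene. Medians run from 7686 FPKM down to 445 FPKM, and for most genes the 6 marks lie close together, while 17 genes have a highest value at least 3 times the lowest.

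Rank 1 was a plus-strand gene on chromosome 3 (1333975 to 1343044). It had 7643, 7625 and 7729 FPKM in controls 1 to 3 and 5884, 10590 and 8659 FPKM in air-dried 1 to 3. The controls were nearly equal, and the air-dried libraries lay on both sides of them, with air-dried 1 lowest; set B lay above set A throughout. Its leading transcript, the one with the largest mean share of the gene's FPKM, was an assembled transcript with 87.2%. It spanned 7630 bp of the chromosome; the length without introns is not given. The gene overlaps 2 other listed genes.

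Rank 2, on the plus strand of chromosome 10 (18258521 to 18261722), had 9889, 10274 and 7590 FPKM in the controls and 7058, 6137 and 6323 FPKM after drying. All air-dried values lay below all controls, by -0.50 on the log2(FPKM + 1) scale (SE 0.248, n = 3 per group). It overlaps no other listed gene, and a known transcript held 79.7% of its level.

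Rank 3, on chromosome 5 (125634 to 131868), showed a pattern of another kind. Its values of 15506, 11566 and 10464 FPKM in controls 1 and 2 and air-dried 1 were far above the 2348, 3054 and 2016 FPKM in control 3, air-dried 2 and air-dried 3. The high libraries were those of set A and the low ones those of set B, a difference of -2.34 (log2, set B minus set A). The groups overlapped; the air-dried library of set A was below the mean of its controls (-0.36, log2), and in set B the difference was 0.08. Set B holds 2 of the 3 air-dried libraries, so the sets and groups share libraries, and no test was made. Rank 8, a gene with 1 transcript on chromosome 11 (14760426 to 14761617), combined both patterns. It had 4630, 5659 and 1581 FPKM in the controls and 9079, 3564 and 3196 FPKM in air-dried 1 to 3. The groups overlapped. Within set A air-dried 1 was higher than the mean of its controls by 0.83 (log2). Within set B the mean of air-dried 2 and 3 was higher than control 3 by 1.09. The fit with the library set called the gene higher. The sets were read from the same values, so calls of that fit, here and below, are description and no test. Without the set in the fit, the log2 difference of rank 8 was 0.44. It turned to -0.13 without control 3 and to -0.04 without air-dried 1.

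Other genes near the top were steady. Rank 7, on chromosome 14 (13248183 to 13249779), stayed between 3960 and 4715 FPKM, with 4248 ± 120 FPKM in the controls and 4216 ± 432 FPKM after drying (SD, n = 3 each). Rank 14, on chromosome 5 (5540200 to 5543793), had 2644, 2701 and 2440 FPKM in the controls and 3182, 2845 and 3140 FPKM after drying. Its groups did not overlap, with a log2 difference of 0.24 (SE 0.157). Among the 20 highest genes the ratio of highest to lowest library ran from 1.19 to 7.69 and was under 1.5 in 10. Groups did not overlap in 2 of these 20 genes, 1 higher and 1 lower, where 15.9% and 16.8% of tested genes had such groups. Set B lay wholly below set A in 7 and wholly above it in 2, against 8.68% and 7.19% of tested genes.

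Over all 198 genes the ratio of highest to lowest library had a median of 1.48, against 1.46 over the tested genes. It was under 1.5 in 107 genes (54.0%, against 52.7% of tested genes) and at least 3 in 17 (8.59%, against 9.72%). Among tested genes with a known transcript and a span of at least 600 bp, these shares were 57.4% and 6.26%. Beside these genes, which met the same limits, a smaller share of the 198 was under 1.5 and a larger share at least 3. The pooled SD within a group had a median of 0.173 on the log2 scale, against 0.143 over the tested genes and 0.133 over the 200 genes ranked next below the first 200. With the spread taken within both group and set, the medians were 0.141 over the 198 genes, 0.129 over the tested genes and 0.108 over the next 200.

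The steadiest gene, rank 107 on chromosome 5 (21738849 to 21747907), had 747, 745 and 740 FPKM in the controls and 734, 742 and 707 FPKM after drying, an SD within groups of 0.026. Rank 180 on chromosome 6 (327197 to 331724) was similar, with 479, 495 and 481 FPKM in the controls and 512, 493 and 520 FPKM after drying. The groups overlapped in both. Rank 134 on chromosome 12 (10557132 to 10560360) was also tight within groups, yet its groups did not overlap: 689 ± 12.6 FPKM in the controls against 568 ± 13.3 FPKM after drying (SD, n = 3 each).

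The largest spreads within groups belonged to rank 186 on chromosome 13 (2390896 to 2402116), rank 3 and rank 103 on chromosome 1 (35851249 to 35853451), with pooled SDs of 1.66, 1.36 and 1.35 on the log2 scale. Rank 186 had 193, 161 and 130 FPKM in set A and 1166, 1337 and 756 FPKM in set B. Rank 103 ran the other way, with 1192, 1318 and 1252 FPKM in set A and 209, 336 and 271 FPKM in set B. Within group and set the SDs of these 3 genes fell to 0.431, 0.367 and 0.171.

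Set B was the lower set in most of the abundant genes. It lay wholly below set A in 53 of the 198 genes (26.8%), against 8.68% of the tested genes, and wholly above it in 7 (3.54%), against 7.19%. Among the 200 genes ranked next below, set B lay below in 48 (24.0%), so this was not limited to the 198. The median difference, set B minus set A, was -0.15 over the 198 genes, -0.11 over the next 200 and 0.00346 over all tested genes (log2). Air-dried 3 was the lowest library in 82 of the 198 genes and control 3 in 56, while control 1 was the highest in 71. For 108 of the 198 genes (54.5%) the difference between sets was larger than the difference between groups, which held for 40.8% of tested genes. No test was made, because the sets were read from the same values.

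The difference between sets went with the length covered by the leading transcript. Set B lay wholly below set A in 14 of 36 genes whose leading transcript spanned under 1000 bp (38.9%), in 22 of 65 at 1000 to under 2000 bp (33.8%), in 10 of 66 at 2000 to under 4000 bp (15.2%) and in 7 of 31 at 4000 bp or more (22.6%). Over all tested genes with a known transcript and a span of at least 600 bp, the same classes gave 17.8%, 11.3%, 7.72% and 3.41%. In each of the 4 classes the abundant genes had the higher share. The part of fragment length, depth or batch in this was not tested.

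**Figure D2:**
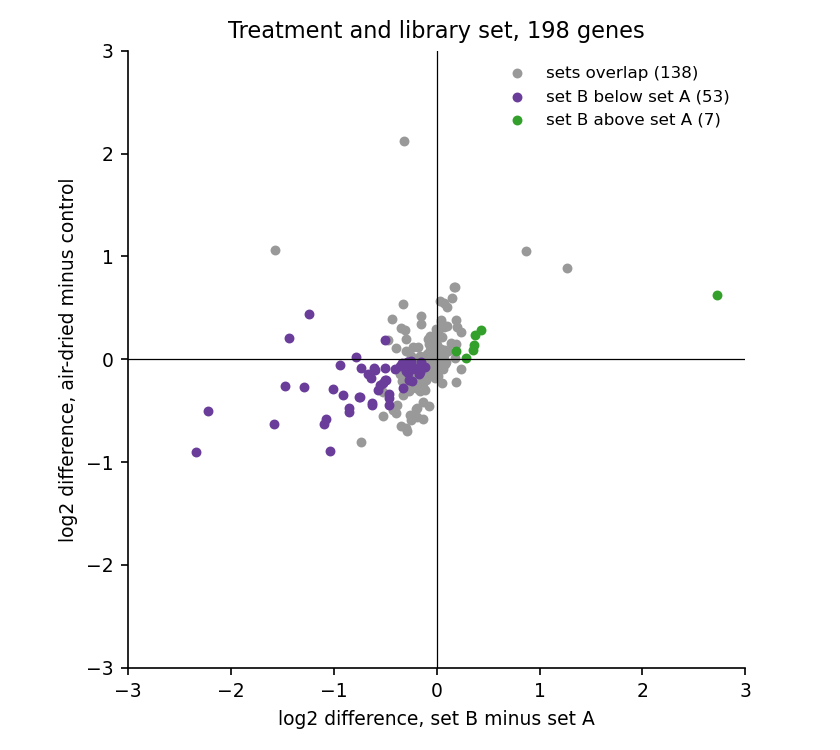
For each of the 198 genes, the log2 difference between set B and set A (horizontal axis) and between air-dried and control libraries (vertical axis); purple marks are genes with all set B values below all set A values (53), green marks those with all above (7). The points spread more widely along the horizontal axis, from -2.34 to 2.72; since set B holds 2 air-dried libraries and 1 control, the axes share libraries and are not independent.

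The comparison of air-dried with control leaves asks which abundant messages changed within the short drying. Among the 198 genes 3 rose and 9 fell, called by limma at a threshold of 0.05 on the p-value after Benjamini-Hochberg adjustment over all 22356 genes. That is 1.52% and 4.55%, where 5.6% and 7.44% of all tested genes were called. The selection used this contrast, so nothing is read from these shares. Before genes were taken out for their change, 4 and 10 of the 200 were called. The log2 changes ran from 0.56 to 0.70 among the genes that rose and from -0.70 to -0.47 among those that fell. In each of the 12 the groups did not overlap. A fit that included the library set called these 12 too, with 6 genes higher and 11 lower in all (5.41% and 6.92% of tested genes). Because the sets were read from the same values, the further calls of this fit are description only. Leaving out single libraries left between 1 and 3 genes higher and between 1 and 6 lower.

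**Figure D3:**
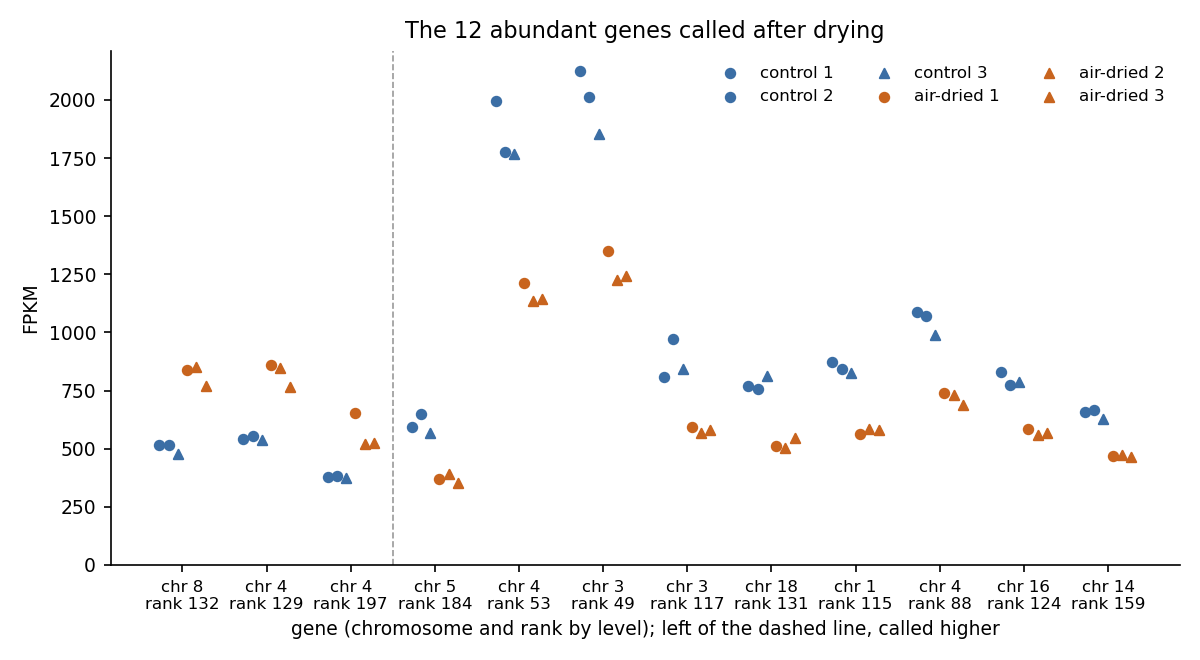
FPKM by library of the 12 abundant genes called after drying, labelled by chromosome and rank; blue marks are controls, orange marks air-dried libraries, circles set A and triangles set B. In each gene all 3 orange marks lie on 1 side of the 3 blue marks, with 3 genes higher and 9 lower after drying.

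The gene POPTR_0008s06580.r1 (rank 132, minus strand of chromosome 8, 3917339 to 3919007) had 515, 514 and 479 FPKM in the controls and 839, 851 and 769 FPKM after drying. The air-dried values were all above the controls, and both groups were narrow. It rose 1.63-fold, a log2 change of 0.70 (SE 0.103), with 0.71 within set A and 0.76 within set B. POPTR_0004s00480.r1 (rank 129, plus strand of chromosome 4, 168812 to 171890) had 541, 552 and 539 FPKM in the controls and 861, 849 and 765 FPKM after drying, again without overlap, a log2 change of 0.60 (SE 0.103). The third gene that rose, rank 197 on the minus strand of chromosome 4 (1305838 to 1307624), had 380, 383 and 376 FPKM in the controls and 652, 519 and 523 FPKM after drying, with air-dried 1 above the other air-dried libraries. None of the 3 overlaps another listed gene.

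Of the 9 genes that fell, POPTR_0005s04590.r1 (rank 184, minus strand of chromosome 5, 3085108 to 3088069) had the largest difference. It had 594, 649 and 568 FPKM as control values and 369, 390 and 353 FPKM after drying, a log2 change of -0.70 (SE 0.102), with -0.75 within set A and -0.61 within set B. POPTR_0004s01510.r1 (rank 53, plus strand of chromosome 4, 838421 to 867990) had 1995, 1775 and 1767 FPKM in the controls and 1210, 1137 and 1142 FPKM after drying, a log2 change of -0.66 (SE 0.128). The groups were apart in both genes, and the second overlaps 4 other listed genes, whose reads may not be separable.

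Rank 49 on chromosome 3 (7941463 to 7995658) had 2123, 2012 and 1851 FPKM in the controls and 1349, 1226 and 1243 FPKM after drying, a log2 change of -0.65 (SE 0.134). It covers 54196 bp, has 12 transcripts and overlaps 3 other listed genes. Rank 88 (chromosome 4, minus strand, 154954 to 157235) had 1086, 1069 and 988 FPKM in the controls and 741, 730 and 687 FPKM after drying. The groups were apart, and the gene lies 11576 bp from the gene of rank 129, on the other strand, that rose. The remaining 5 genes that fell had log2 changes between -0.59 and -0.47, and they lie on chromosomes 3, 18, 1, 16 and 14. Of the 9 genes that fell, 4 overlap another listed gene.

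Groups did not overlap in 20 genes that were higher after drying (10.1%, against 15.9% of tested genes) and in 33 that were lower (16.7%, against 16.8%). Their median log2 differences were 0.34 and -0.35. The selection used this contrast, and nothing is read from these shares. In the other 145 genes the groups overlapped.

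Over the 198 genes the median log2 difference was -0.08, with quartiles of -0.23 and 0.11, and 129 (65.2%) were lower after drying. The median over all tested genes was 0.00801, and 48.6% of them were lower. Within set A the median of the 198 was -0.0938 and within set B 0.0519, so its sign was not the same in both sets; set A holds 1 air-dried library and set B 1 control. The absolute difference had a median of 0.192, against 0.175 over the tested genes.

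**Figure D4:**
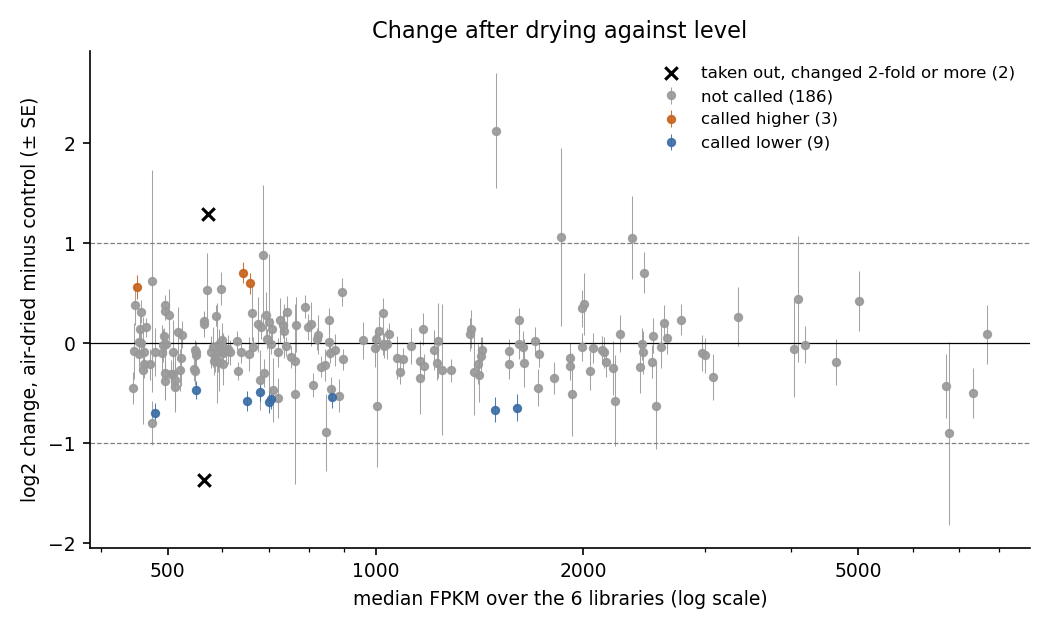
Log2 difference (air-dried minus control, with SE) of each gene against its median FPKM on a log axis; dashed lines mark a 2-fold difference, orange and blue marks the genes called higher (3) and lower (9), grey marks those not called (186), and crosses the 2 genes taken out. Most genes lie between the dashed lines, and the gene with the largest difference, rank 52 at 2.12, was not called and has a wide error bar (SE 0.574).

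Several genes with large differences were not called. Rank 52, on the minus strand of chromosome 13 (4273477 to 4281171), had 782, 1223 and 302 FPKM in the controls and 3856, 3531 and 1767 FPKM after drying. The groups did not overlap and the log2 difference was 2.12 (SE 0.574). It stayed in the list because the lowest air-dried value was under 2 times the highest control. It was called higher once the library set, itself read from these values, was in the fit. An assembled transcript over the whole locus held 99.9% of its level, in air-dried 1 3853.07 of 3856.25 FPKM. With only its known transcript counted, its log2 difference was 0.39. The known transcript was so low that the log2(FPKM + 1) scale understates its changes, and little can be read from this value.

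Rank 40 on chromosome 16 (12410806 to 12413020) had the widest range, from 400 FPKM in control 3 to 6163 FPKM in air-dried 1, with 1767 and 1942 FPKM in controls 1 and 2 and 2204 and 918 FPKM in air-dried 2 and 3. The groups overlapped. Within set A air-dried 1 was higher than the mean of its controls by 1.73 (log2). Within set B the mean of air-dried 2 and 3 was higher than control 3 by 1.83. Each difference thus rests on a single library on 1 side. The gene was called higher once the library set was in the fit. Rank 21 on chromosome 1 (40733056 to 40734123), with 1 transcript, had 2189, 1604 and 2115 FPKM in the controls and 3666, 3256 and 2705 FPKM after drying. These groups did not overlap, with a log2 difference of 0.71 (SE 0.209). Rank 25 on chromosome 14 (17519728 to 17672115) had 1106 and 763 FPKM in controls 1 and 2, and between 2337 and 2861 FPKM in the other 4 libraries, control 3 among them. Rank 185 on chromosome 2 (1056728 to 1059404) had 735, 746 and 490 FPKM in the controls and 460, 334 and 330 FPKM after drying, without overlap, a log2 difference of -0.80 (SE 0.222); it was called lower once the library set was in the fit.

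The 2 genes taken out had ranks 154 and 157 of 200, with medians of 572 and 564 FPKM. The gene on chromosome 2 (4980219 to 4983849, minus strand) had control values of 348, 328 and 359 FPKM and air-dried values of 785, 898 and 860 FPKM. The gene on chromosome 7 (14318437 to 14320123, plus strand) had control values of 856, 876 and 784 FPKM and air-dried values of 345, 313 and 312 FPKM. Over the tested genes the same rule held for 1.53% higher and 1.53% lower. Nearest to the rule among the genes that stayed were ranks 132 and 52, whose lowest air-dried value was 1.49 and 1.44 times the highest control, and ranks 53 and 184, whose highest air-dried value was 0.685 and 0.686 times the lowest control.

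Which transcript carried a gene's level was not part of the selection. Of the 198 genes 41 had a single transcript and 157 had several, up to 20 in rank 94 on chromosome 11 (14141050 to 14146189). In these 157 the leading transcript held a median of 74.6% of the gene's FPKM, over 90% in 56 genes and under 50% in 14. The same transcript had the highest FPKM in all 6 libraries in 114 of the 157 (72.6%), against 62.4% of the tested genes with several transcripts. Among such genes of the 200 ranked next below it was 69.8%. The leading transcript was marked known in 144 of the 198 genes and assembled from reads in 54 (27.3%, against 39.0% of tested genes). Tested genes without a known transcript can only be led by an assembled one, and the selection left such genes out. Among tested genes with a known transcript and a span of at least 600 bp the share was 35.6%. Among the 200 genes ranked next below it was 30.0%.

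No gene of the 198 was led by 1 transcript in the 3 controls and by another in the 3 air-dried libraries, which was the case for 0.25% of tested genes. In 12 (6.06%), 1 transcript led in the 3 libraries of set A and another in the 3 of set B, against 1.92% of tested genes. Rank 164 on chromosome 16 (11635107 to 11638978) is the extreme case. Its 3 transcripts share the same start and end. The leading one held 98.1% to 98.5% of the level in set A and at most 0.000228% in set B, where another held 97.5% to 98.0%. The summed level had no such break, with 569, 608 and 565 FPKM in the controls and 527, 428 and 501 FPKM after drying, all lower than the controls, by -0.26 (log2, SE 0.117).

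Rank 31 on chromosome 15 (8514429 to 8517940) had a nearly constant sum of 2142, 2170 and 2110 FPKM in the controls and 1970, 2208 and 1952 FPKM after drying. Its leading transcript held 29.5%, 31.3% and 33.5% in set A and 79.5%, 64.2% and 74.3% in set B. Rank 53, which fell after drying, behaved alike. The assembled transcript over its whole locus held 29.1% in control 1, 6.50e-05% in control 2 and 23.6% in air-dried 1, and 100%, 68.6% and 100% in set B (control 3, air-dried 2 and 3), while the sum was lower after drying within both sets, by -0.64 and -0.63 (log2). In these genes the sum over transcripts was steadier than its parts. Between groups, the share of the leading transcript differed most in ranks 164, 186, 110, 64 and 171. The differences, air-dried minus control, were -32.9, 27.1, -26.0, 24.6 and -21.6 percentage points. Between sets (set B minus set A) the same genes differed by -98.4, 68.4, -29.2, 54.9 and -21.2 points. Since the groups hold the sets unequally, these are not read as changes after drying. In rank 164 the SDs within groups were 56.9 points (controls) and 56.7 points (air-dried).

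**Figure D5:**
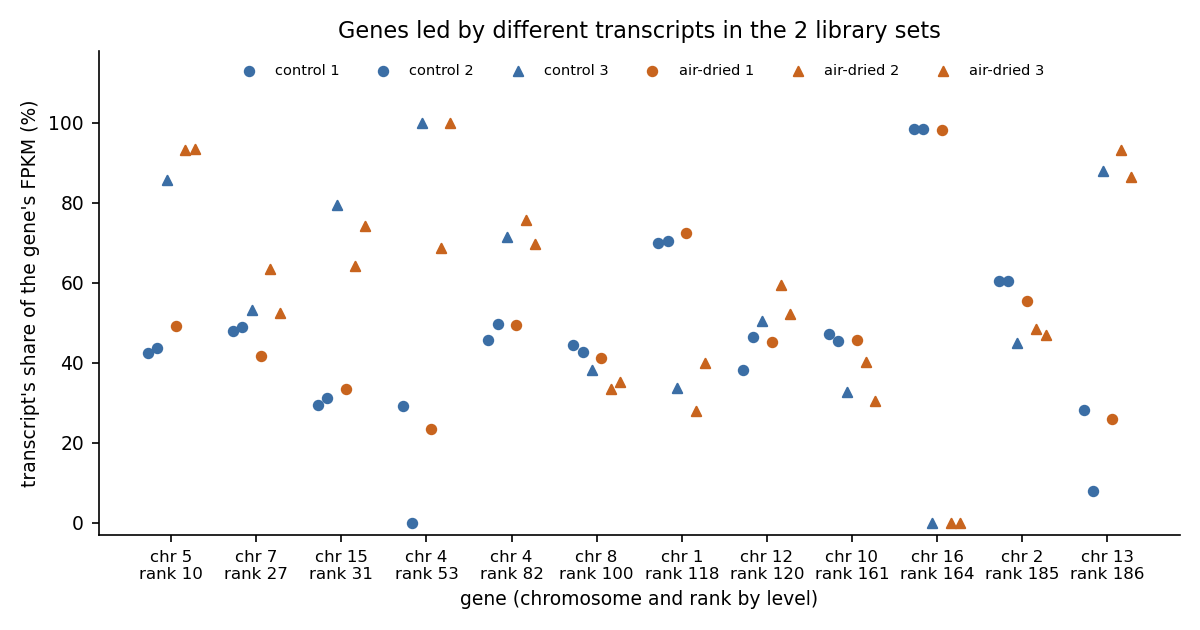
Share of the gene's FPKM held by its leading transcript in each library, for the 12 genes led by different transcripts in sets A and B, labelled by chromosome and rank; blue marks are controls, orange marks air-dried libraries, circles set A and triangles set B. Circles and triangles separate in every gene most widely in rank 164 on chromosome 16.

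The levels of some of the 198 genes rested on short transcripts, for which FPKM depends strongly on the assumed fragment length. The leading transcript spanned under 600 bp in 9 genes (4.55%, against 0.711% of the tested genes with a known transcript and a span of at least 600 bp) and under 300 bp in 3. In rank 40 an assembled transcript spanning 108 bp held nearly the whole level in every library. In rank 62 on chromosome 3 (4597734 to 4602217) a known transcript spanning 132 bp held 84.1%, 73.7% and 83.4% in set A and 47.9%, 35.8% and 64.1% in set B. The gene's FPKM was 2372, 1506 and 2286 in set A and 648, 589 and 991 in set B. Rank 40 was called higher once the library set was in the fit; without it, none of the 9 was called, where 5.6% and 7.44% of all tested genes were called higher and lower.

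Other genes covered long stretches of the chromosome. The span was over 10000 bp in 16 genes (8.08%, against 8.01% of tested genes). The longest, rank 29 on chromosome 8 (3135050 to 3452552), covered 317503 bp and overlapped 44 other listed genes, while its leading transcript spanned 2916 bp. Rank 10 on chromosome 5 (12035432 to 12265167) covered 229736 bp and overlapped 36 genes, and a known transcript spanning 1493 bp held 68.0% of its level on average. In all, 46 of the 198 genes overlapped another listed gene, so that part of their level may belong to a neighbour. Of the 152 without overlap, 3 rose and 5 fell, where 5.6% and 7.44% of all tested genes were called; nothing is read from these counts.

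The abundant genes lay on all 19 numbered chromosomes and on no smaller scaffold. Chromosome 1 held 26 and chromosome 5 held 24, which is 1.1% and 1.68% of their genes that could be ranked and were tested; chromosome 17 held 1 (0.16%). These shares were not compared by a test. Of the 198, 94 were on the plus and 104 on the minus strand.

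Some abundant genes lie close together, with 8 pairs less than 20000 bp apart, 3 of them on 1 strand. Of these pairs 2 overlap, and 3 have between 1 and 3 other listed genes between them. The difference after drying had opposite signs in 3 of the 8 pairs. On chromosome 10 the gene at 15121276 to 15122615, with a median of 2004 FPKM, was higher after drying by 0.39 (log2), and the gene next to it on the same strand at 15124126 to 15131304, 1510 bp away with 886 FPKM, was lower by -0.53. Ranks 88 and 129 on chromosome 4, with 1 listed gene between them, also differed in direction, as given above. On chromosome 5 the gene of rank 184 and the gene at 3102181 to 3104568, with 3 listed genes between them, had log2 differences of -0.70 and -0.30; the second was not called.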

How the data were processed

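Leaf RNA of 6 libraries (3 controls, 3 air-dried) was analysed from tables of FPKM per transcript, deposited by the authors; per the submitters' processing notes, the tools were FastQC, TopHat and Cufflinks (no versions), and the sources used here give no genome build, strand setting or read numbers. Transcripts were summed per gene and used without rescaling. Groups were compared with limma 3.58.1 in R 4.3.3 (eBayes with trend, two-sided, Benjamini-Hochberg, threshold 0.05) on log2(FPKM + 1) over 22356 genes whose mean FPKM was 1 or more; this scale understates changes of low genes. Library sets were read from the values, and no batch is labelled. Alternatives covered the pseudocount, scaling, filter, library set, replicate block, known transcripts, list length and each library left out. The procedure was tested on simulated data. Genes were described by fixed ranks: the 20 highest, the 5 largest rises and falls without overlap, the 3 largest and smallest spreads, both sides of each limit and the 5 largest shifts of the leading transcript; further genes were chosen after their values were seen. The genes, the library sets, lists and tests were chosen with earlier results of these data known. Functional gene lists, a marker check and promoter motifs were planned and not run, because no table used here pairs the accessions with names. Depth is unknown, so no counting interval is given.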

Additional observations from a re-analysis of the deposited data

How the results depend on the processing

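The 12 calls among the abundant genes depended on the settings and on which single library was left out. Higher genes numbered 6 once the library set was in the fit, where 5.41% of tested genes were higher, and 5 with known transcripts alone. They numbered 8 in limma's eBayes without a trend, where 1244 of all 22356 tested genes were higher. Among the 100 and 400 highest genes they numbered 0 of 100 and 13 of 396. The calls in these 2 lists come from the main fit, which called 5.6% of tested genes higher and 7.44% lower. Higher genes ranged from 1 to 3 without single libraries. Nothing is read from these counts. Lower genes numbered 3 and 23 among the 100 and 400 highest genes, 5 without overlap with another listed gene (chosen after seeing the data), and 1 to 6 without single libraries (1 without control 1, control 2, air-dried 1 or air-dried 2, 2 without air-dried 3). Higher genes numbered 1 without control 1, control 2, air-dried 1 or air-dried 2. Over all tested genes, known transcripts alone gave 667 higher and 754 lower against 1253 and 1663, and single libraries left out gave 657 to 890 and 824 to 1125. Non-overlapping genes numbered 8 and 44 higher, and 17 and 78 lower, among the 100 and 400 highest. With all 6 libraries, 15.9% of tested genes had such groups higher and 16.8% lower. Without single libraries the non-overlapping genes of the list numbered 22 to 36 higher (36 without air-dried 3) and 34 to 80 lower (80 without control 3). With a library left out, fewer values have to separate in any gene. The share over all tested genes was not counted there, and nothing is read from these counts. The number of genes with 1 leading transcript was 38 of 51 with known transcripts alone, where it held a median of 93.5%. Among the 100 highest it was 53, counted only over genes with several transcripts. A single transcript was listed for 21 of the highest 50 genes and for 4 of ranks 51 to 100. The share of FPKM was 12.01% over all genes. The median spread was 0.141 within group and library set. The median log2 difference stayed between -0.144 and -0.0130 in all 19 alternatives. Of the 41 genes described by rank, none called in the fit without the library set changed sign under the 11 alternatives run for each. In 13 others the sign changed under at least 1 alternative. Rank 8, called higher only with the library set in the fit, was among them, with the opposite sign under 2.

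Replicate numbers were not taken to pair the libraries: over all tested genes, the deviations from the group means correlated at 0.187 for number 1, -0.0961 for number 2 and 0.292 for number 3. With the replicate block 3 of the 198 genes were higher and 10 lower, and 924 and 1197 of all tested genes. Libraries 1 and 3 of each group correlated best with their own number, and those with number 2 did not. Depth in reads is unknown, so the precision of single values cannot be stated.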
